A study of Mus musculus with 6 samples.

Results

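The genes described here encode the myosin heavy chains of the embryonic ventricle and the proteins that hold them in the thick filament of the sarcomere. They are 9 of the 23284 genes listed, chosen by name: the sarcomeric heavy chains Myh6, Myh7 and Myh7b, the non-muscle heavy chains Myh9 and Myh10, the filament proteins Mybpc3, Myom1 and Myom2, and titin (Ttn). The rule used names and no values. RNA-seq was made from the ventricle at embryonic day 9.5 (E9.5) of 3 WT and 3 KD mouse embryos labelled C57BL/6. All 6 were chimeras obtained by tetraploid complementation, in which the embryo proper derives from injected ES cells; WT embryos came from wild type ES cells, and KD embryos, with the genotype Tbx5ua -/-, from C57BL/6 J-derived ES cells in which each allele of the long non-coding RNA Tbx5ua carries inserted tandem polyadenylation signals that stop its transcription early. The edited ES cells were clonal, the selection cassettes had been removed with Cre, and how many ES cell lines stand behind the sequenced KD embryos is not given in the sources used here. The comparison asks which genes respond when Tbx5ua transcription is cut short.

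The deposited values are 1 FPKM (fragments scaled to the length of the transcript and to the size of the library) per gene and group, pooled over the embryos of that group. No value of a single embryo was used, so no spread between embryos, no error and no test accompanies any value below, and the order of genes or groups that lie close together cannot be set against replicate error. No depth of a library is given, so no interval could be computed. The data therefore describe levels and ratios only. Ratios of KD over WT are on the log2(FPKM + 1) scale, which understates the ratio of low genes. A gene passed the filter on low values when its FPKM reached 1 in WT, in KD or in both, as was so for 11606 genes. Tbx5ua is not analysed here, so the knockdown itself could not be checked against the labels.

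Muscle myosin is a hexamer of a pair of heavy chains with their light chains. The heavy chain carries the motor domain that splits ATP and pulls on actin, and a long coiled-coil tail that packs with others into the thick filament. Myh6 (alpha) is the faster and Myh7 (beta) the slower motor of the heart. In the mouse, Myh7 prevails in the ventricle before birth and Myh6 after it. Myosin binding protein C (Mybpc3) clasps the filament, myomesins (Myom1, Myom2) crosslink filaments at the M-band in the middle of the sarcomere, and titin spans from the Z-disc to the M-band as a spring and ruler.

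Markers of the heart were high. Of 8 cardiomyocyte markers all passed the filter, from 224 FPKM for Nkx2-5 to 13643.1 FPKM for Myl7 in WT. Of 7 skeletal muscle markers, Myod1, Myog, Myf5 and Myf6, which direct skeletal muscle, were listed at 0 in both groups. The other 3 passed the filter, among them Acta1 at 1760 FPKM in WT against 1345 FPKM in KD. Erythroid transcripts were abundant, with Hba-x at 4401 FPKM in WT against 4318 FPKM in KD. Epicardial markers stood apart between the groups: 6 of the 7 passed the filter, and all 6 were higher in KD. Of the 11606 genes, 49.1% were lower in KD. The summed level of the 7 epicardial markers was 47.3 FPKM in WT against 96.8 FPKM in KD. The summed level of the 8 cardiomyocyte markers was 29430.1 FPKM in WT against 28381.8 FPKM in KD. In such bulk samples fewer cells of a type and less RNA per cell cannot be told apart. The part of the epicardial difference in the ratios below was not tested.

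Myh7, Mybpc3 and Myh6 were the most abundant of the 9 genes in either group, and the order of all 9 by FPKM was the same in WT and KD. From the highest, this order was Myh7, Mybpc3, Myh6, Myom1, Myh10, Ttn, Myh9, Myh7b and Myom2. In WT the levels ran from 469.9 FPKM for Myh7 to 3.09 FPKM for Myh7b, with Myom2 listed at 0. Of the 9 genes 8 passed the filter, each of them in both groups, and Myom2 did not. None of these 8 differed by 1.5-fold between KD and WT, a size reached by 3.66% of the 11606 genes.  In KD 6 of the 8 had a lower value and 2 a higher one, where 49.1% of the 11606 genes were lower. The median log2 ratio of the 8 was -0.14, beside 0.00426 for the 11606 genes.

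**Figure D1:**
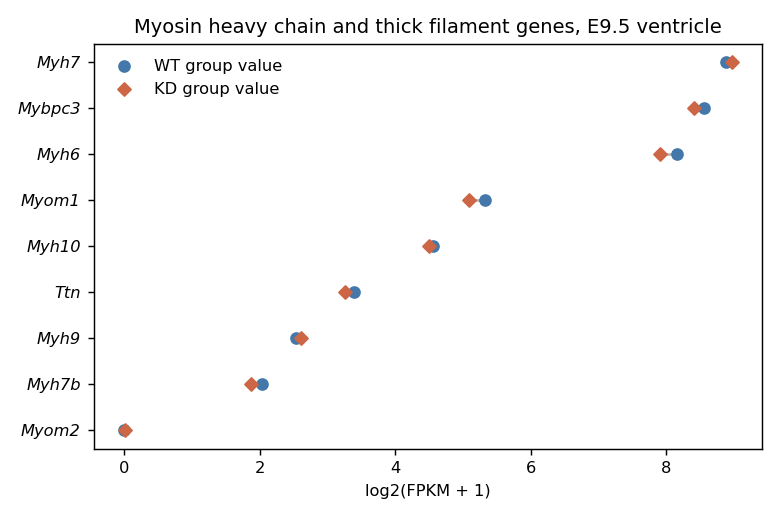
Group values of the 9 genes as log2(FPKM + 1), WT as circles and KD as diamonds, sorted by WT level; each symbol is the authors' value for a group, with no error. Myh7 at the top and Myom2 at the bottom keep their places in both groups, and the gap between groups is widest for Myh6 and Myom1.

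**Figure D2:**
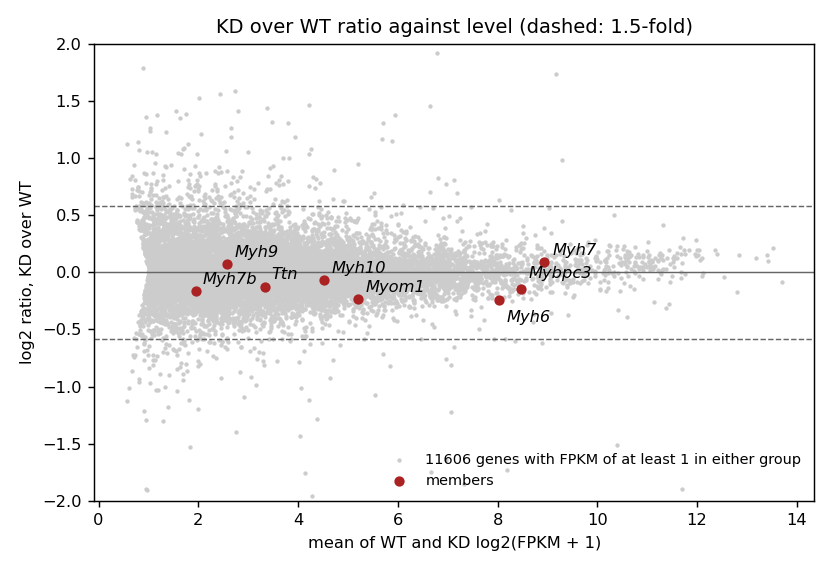
Log2 ratio of KD over WT against the mean log2(FPKM + 1) of the groups for the 11606 genes past the filter (grey) and the 8 members past it (red); dashed lines mark 1.5-fold, and 66 genes lie outside the vertical range. The 8 members lie between -0.24 and 0.09, inside the dashed lines.

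The 2 main cardiac motors pointed in opposite directions. Myh7, annotated on chromosome 14 from 54970684 to 54994626 (GENCODE M21, GRCm38), had an authors' group value of 469.9 FPKM in WT against 500.4 FPKM in KD, a log2 ratio of 0.09. It was the 326th most abundant gene in WT and the 314th in KD among 23282 genes with a value. The position given for it in the deposited table, 54968787 to 54994549 (mm10), is a merged locus that it shares with the rows of D830015G02Rik and Mir208b. Myh6, its neighbour on chromosome 14 from 54941921 to 54966607, stood at 284 FPKM in WT against 239 FPKM in KD, a log2 ratio of -0.24. This was the largest absolute ratio of the 8 genes, and 75.1% of the 11606 genes had a smaller one. For Myh7 only 36.2% of the 11606 genes had a smaller absolute ratio, so most genes differed more than Myh7 did. Among the 1219 genes that reached 100 FPKM in WT or KD, the central 95% of ratios ran from -0.42 to 0.45, and both motors lay within this range.

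The sum of Myh6 and Myh7 was 754 FPKM in WT against 740 FPKM in KD, so the pool of cardiac motor transcripts was nearly the same while its make-up differed. Myh7 made up 62.4% of it in WT against 67.7% in KD, a difference of 5.29 percentage points. Expressed as a ratio, there were 1.66 Myh7 transcripts per Myh6 transcript in WT and 2.09 in KD, per length. Over all 14 class II heavy chain genes measured, Myh6 and Myh7 together held 96.1% of the summed FPKM in WT and 96.2% in KD. The Myh6 share of this total was 36.2% in WT and 31.1% in KD, and the Myh7 share was 59.9% and 65.1%.

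**Figure D3:**
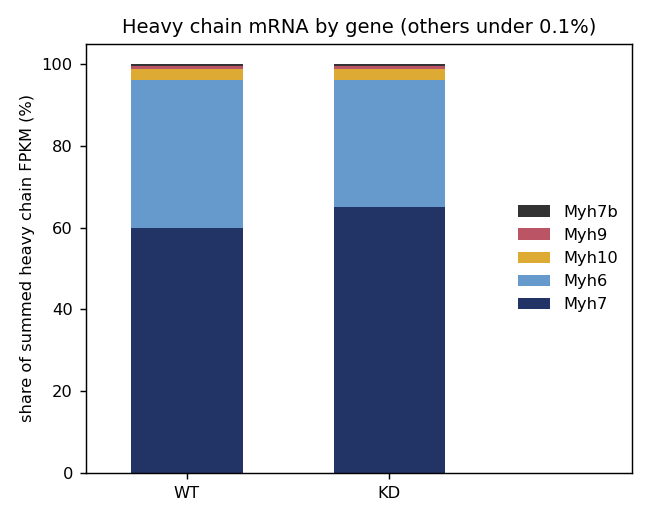
Share of the summed FPKM of the heavy chain genes held by each gene, in percent, in the WT and KD group values; bars start at 0 and carry no error. The dark Myh7 segment takes 59.9% of the WT bar and 65.1% of the KD bar, and the Myh6 segment 36.2% and 31.1%.

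The balance between Myh6 and Myh7 rests on reads that tell the genes apart, and their mRNAs are close copies. In the GENCODE M21 annotation of GRCm38, the build also called mm10, the longest coding sequences of Myh6 (5814 bases) and Myh7 (5805 bases) were identical at 91.7% of 5802 aligned bases. Of all stretches of 50 bases in the Myh6 transcript, 22.6% also occur unchanged in a Myh7 transcript, and of all stretches of 100 bases 11.4% do. The read length is not given in the sources used here. The number of reads that fit both genes, and how Cuffdiff divided them, is therefore unknown, which makes the separate values of Myh6 and Myh7 less certain. If all such reads were kept, the summed FPKM of Myh6 and Myh7 depends on this division only through the small difference in transcript length.

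The sequences show how uneven the likeness is. The 60-base window of the coding alignment with the most differences has 27, shown in capitals, and sequence from it differs between the genes. In Myh6 it is coding bases 3226 to 3285 in exons 24 and 25 (chr14:54952303-54952599, minus strand), and in Myh7 coding bases 3220 to 3279 in exons 26 and 27 (chr14:54980378-54982191, minus strand), the spans including the intron between.
Myh6: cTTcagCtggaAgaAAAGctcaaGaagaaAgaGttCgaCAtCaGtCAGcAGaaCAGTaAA
Myh7: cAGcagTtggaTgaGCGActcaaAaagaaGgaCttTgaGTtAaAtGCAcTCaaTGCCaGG
The longest run with no difference is 245 bases, in exons 30 and 31 of Myh6 (chr14:54948327-54948725, minus strand) and exons 32 and 33 of Myh7 (chr14:54974947-54975347, minus strand), in the part that encodes the coiled-coil tail. A read that falls within it could come from either gene.
Myh6 and Myh7: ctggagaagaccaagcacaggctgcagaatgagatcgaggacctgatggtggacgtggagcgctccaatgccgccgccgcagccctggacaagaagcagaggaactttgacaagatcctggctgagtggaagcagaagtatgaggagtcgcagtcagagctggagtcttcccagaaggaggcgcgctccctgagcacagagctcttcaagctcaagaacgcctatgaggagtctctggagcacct
Along the coding sequence the identity was lowest in part 2 of 10 equal parts, at 82.8%, and highest in part 10, at 96.6%.

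**Figure D4:**
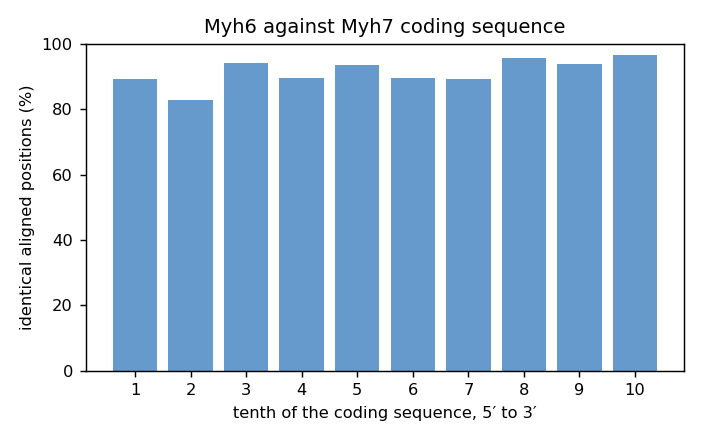
Share of identical positions, in percent, in each of 10 equal parts of the aligned coding sequences of Myh6 and Myh7, from the 5′ to the 3′ end. Part 2, at 82.8%, is the least alike, and part 10, at 96.6%, the most.

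Myh7b, the third sarcomeric heavy chain and known from slow-tonic and extraocular muscle, was low. Annotated on chromosome 2 from 155611212 to 155634307, it had 3.09 FPKM in WT against 2.65 FPKM in KD, a log2 ratio of -0.17. Per length, 152 Myh7 transcripts stood against each Myh7b transcript in WT and 189 in KD. The position in the deposited table, 155611212 to 155692384, is a merged locus of 81.2 kb shared with the row of Trpc4ap, a neighbouring gene at 26.4 FPKM in WT against 23.4 FPKM in KD, so the value of Myh7b is less certain. Its coding sequence was identical to that of Myh6 at 72.7% and to that of Myh7 at 72.6% of aligned bases, and it shared no 50-base stretch with either.

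Each of the sarcomeric heavy chain genes harbours a muscle microRNA in an intron, and these are known for regulating the balance of the heavy chains in the heart. The mature sequences from RefSeq (GRCm38.p6) are shown to compare their seeds, bases 2 to 8, in capitals. miR-208a-3p lies in intron 29 of Myh6 (chr14:54949072-54949093, minus strand), miR-208b-3p in intron 31 of Myh7 (chr14:54975710-54975731, minus strand) and miR-499-5p in intron 19 of Myh7b (chr2:155622893-155622913, plus strand).
mmu-miR-208a-3p: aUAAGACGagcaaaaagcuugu
mmu-miR-208b-3p: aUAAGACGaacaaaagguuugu
mmu-miR-499-5p: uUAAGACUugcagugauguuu
The seeds of miR-208a-3p and miR-208b-3p are the same, and 19 of their 22 bases are identical. The seed of miR-499-5p matches theirs at 6 of 7 bases. The rows of Mir208a, Mir208b and Mir499 were listed at 0 in both groups. Smart-Seq2 copies polyadenylated RNA, so mature microRNAs are not measured by these libraries and the zeros give no level.

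The Myh7 locus also holds Mhrt, a long non-coding RNA transcribed antisense to Myh7 and known as Myheart. It was found in the deposited table under its older symbol D830015G02Rik, with 48.1 FPKM in WT against 57.2 FPKM in KD. RefSeq places Mhrt on chromosome 14 from 54968787 to 54974349, of which 3666 bases overlap the Myh7 gene. Smart-Seq2 libraries do not mark the strand, so reads from exons of Mhrt and Myh7 that overlap cannot be told apart. This limit also applies to the Myh7 value, its sum with Myh6 and the Myh7 share, and its size was not tested. Like Myh7, this row was higher in KD.

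The non-muscle heavy chains, which serve cell division, adhesion and cell shape in most cell types, differed little. Myh10, the heavy chain of non-muscle myosin IIB, on chromosome 11 from 68691915 to 68816624, stood at 22.6 FPKM in WT against 21.6 FPKM in KD, a log2 ratio of -0.07. Myh9, that of non-muscle myosin IIA, on chromosome 15 from 77760589 to 77842115, stood at 4.81 FPKM in WT against 5.12 FPKM in KD, a log2 ratio of 0.08. Per length, 4.71 Myh10 transcripts stood against each Myh9 transcript in WT and 4.21 in KD. Their coding sequences were identical at 74.5% of aligned bases, and 0.989% of the 50-base stretches of Myh9 occur in Myh10, far fewer than between Myh6 and Myh7.

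Of 9 other class II heavy chains, 0 passed the filter. They are the skeletal Myh1, Myh2, Myh3, Myh4, Myh8 and Myh13, the smooth muscle Myh11, the non-muscle Myh14, and Myh15. Of these 4 were listed at 0 in both groups, and the highest value was 0.258 FPKM, for Myh11 in WT. Together they held 0.0408% of the summed heavy chain FPKM in WT and 0.0266% in KD. The heavy chain transcripts of these ventricles thus came almost wholly from Myh6, Myh7 and Myh10.

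Mybpc3, whose protein binds the myosin tail and tunes how many heads can reach actin, lies on chromosome 2 from 91118144 to 91136516. Its authors' group value was 374 FPKM in WT against 338 FPKM in KD, a log2 ratio of -0.15. It was the second most abundant of the 9 genes. Per length, 0.496 Mybpc3 transcripts stood against each Myh6 or Myh7 transcript in WT and 0.457 in KD.

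Myom1, which encodes the main M-band crosslinker of the embryonic heart, lies on chromosome 17 from 71019557 to 71126856. It had 39.0 FPKM in WT against 33.0 FPKM in KD, a log2 ratio of -0.24 that came close to that of Myh6. The KD value was 84.5% of the WT value for Myom1 and 84.4% for Myh6. Myom2, which encodes the M-protein of fast skeletal and mature heart muscle, on chromosome 8 from 15057653 to 15133419, was listed at 0 in WT and at 0.00817 FPKM in KD. Transcripts of the M-band in these samples were thus those of Myom1, and no ratio is given for Myom2.

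Ttn lies on chromosome 2 from 76703984 to 76982547. Its authors' group value was 9.49 FPKM in WT against 8.62 FPKM in KD, a log2 ratio of -0.13. Its annotated transcript with the longest coding sequence has 106824 bases, against 6113 bases for Myh6 and 4163 bases for Mybpc3. Scaled to length, 0.0126 Ttn transcripts stood against each Myh6 or Myh7 transcript in WT and 0.0117 in KD. FPKM divides by transcript length, and Smart-Seq2 primes from the poly(A) tail. How evenly a transcript of this size was covered was not tested.

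Other genes that act with the thick filament were taken from lists of known members. The counts in these and all later lists stand beside 2 shares over the 11606 genes, 49.1% lower in KD and 3.66% past 1.5-fold. The lists are short, and no departure from these shares was tested. Of 13 other thick filament and M-band genes 9 passed the filter, 6 lower and 3 higher in KD, with a median log2 ratio of -0.17. Their lowest ratio was -0.27 for Trim55, a ubiquitin ligase of the M-band (65.6 FPKM in WT against 54.4 FPKM in KD). The most abundant was Fhl2, a titin-binding LIM protein gene, with 163 FPKM in WT against 141 FPKM in KD. In this list 0 genes differed by 1.5-fold.

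Heavy chains fold only with help from chaperones. Of 5 genes of myosin folding and assembly 4 were lower and 1 was higher in KD, with a median log2 ratio of -0.16. Hsp90aa1, a general chaperone that also folds myosin, had 771 FPKM in WT against 597 FPKM in KD, a log2 ratio of -0.37 and the lowest of the 5. Unc45b, the muscle-specific myosin chaperone, had 139 FPKM in WT against 119 FPKM in KD, and Smyd1, a muscle methyltransferase of the same machinery, 193 FPKM in WT against 174 FPKM in KD. Unc45a, the general form of the chaperone, was the gene higher in KD, with 7.01 FPKM in WT against 7.89 FPKM in KD. Hsp90ab1 was the most abundant, with 1214 FPKM in WT against 1087 FPKM in KD.

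The light chains, which wrap the neck of the heavy chain, did not lean to either side. Of 10 genes 9 passed the filter, 4 higher and 5 lower in KD, with a median log2 ratio of -0.02. Their ratios ran from -0.26 for Myl6, the essential light chain of non-muscle and smooth muscle myosin, to 0.22 for Myl2, the ventricular regulatory light chain. Of 8 genes of light chain kinases and phosphatase 6 passed, 4 lower and 2 higher in KD, with a median of -0.09. These ran from -0.24 for Ppp1r12b to 0.09 for Rock1, and Ppp1cb was the most abundant, with 110 FPKM in WT against 98.7 FPKM in KD.

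Of 10 genes of titin partners and titin splicing 9 passed the filter, 6 lower and 3 higher in KD, with a median log2 ratio of -0.06. Ankrd1, a stretch-responsive protein of the titin spring region, had 347 FPKM in WT against 231 FPKM in KD, a log2 ratio of -0.59, and was the only gene of this list past 1.5-fold. Capn3, a protease bound to titin, had the highest ratio, 0.34, and was near the filter, with 1.83 FPKM in KD. Csrp3 was the most abundant, with 1975 FPKM in WT against 1897 FPKM in KD. Rbm20, the main splicing factor of titin, had 7.56 FPKM in WT against 7.23 FPKM in KD.

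Of 13 transcriptional regulators of heavy chain genes 12 passed the filter, 8 lower and 4 higher in KD, and 0 differed by 1.5-fold. Their median log2 ratio was -0.03. The ratios ran from -0.16 for Hdac2 to 0.22 for Gata4, which had 45.1 FPKM in WT against 52.9 FPKM in KD. Nkx2-5 was the most abundant, with 224 FPKM in WT against 247 FPKM in KD. Smarca4, the ATPase of the BAF complex known to restrain Myh6 and promote Myh7 in the embryonic heart, had 32.2 FPKM in WT against 32.1 FPKM in KD. Thra, the thyroid hormone receptor that favours Myh6 after birth, had 4.03 FPKM in WT against 4.43 FPKM in KD.

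**Figure D5:**
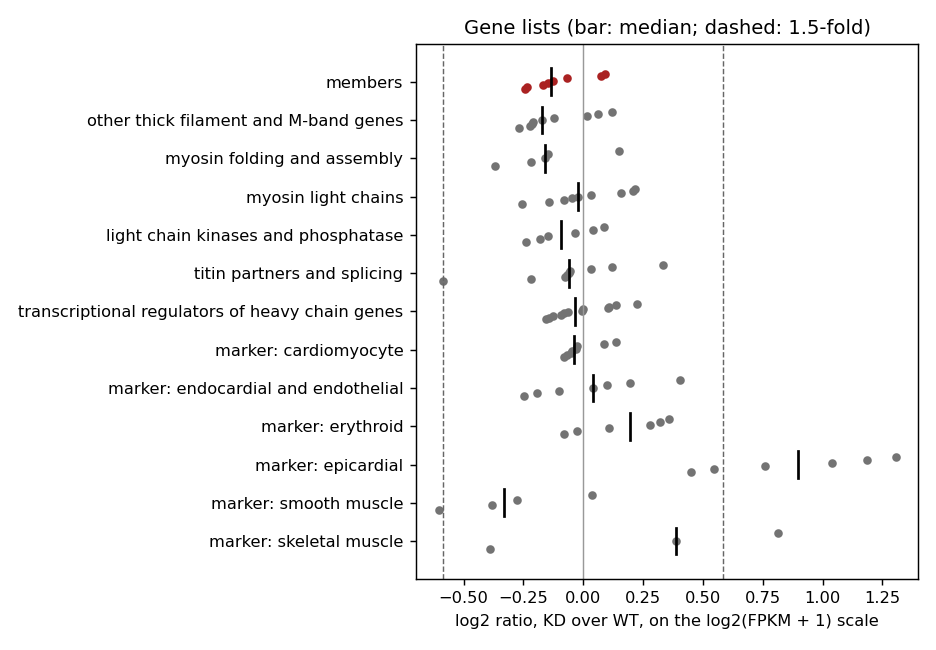
Log2 ratio of KD over WT for each gene past the filter in the members (red) and in each list (grey), with the list median as a vertical bar and 1.5-fold as dashed lines. The member median is -0.14 and the median of other thick filament and M-band genes -0.17, while epicardial markers lie to the right with a median of 0.90.

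Each marker list named for another cell type held some genes with a larger absolute ratio than any of the 8 members past the filter. This difference was not tested, and neither was which cells the transcripts came from. In WT Acta2 stood at 3045 FPKM beside 0.258 FPKM for Myh11, and Acta1 at 1760 FPKM beside 0 for Myod1. The smooth and skeletal muscle lists thus need not mark cells other than cardiomyocytes here. Of the 6 epicardial markers past the filter Upk3b (log2 ratio 1.31), Upk1b (1.18), Tcf21 (1.04) and Tbx18 (0.76) passed 1.5-fold, and Wt1 had the lowest ratio, 0.45. Of 5 smooth muscle markers 4 passed the filter, with ratios from -0.60 for Tagln, which passed 1.5-fold, to 0.04 for Smtn, while Acta2, the most abundant, had 3045 FPKM in WT against 2512 FPKM in KD. Of 7 skeletal muscle markers 3 passed, from -0.39 for Acta1 to 0.81 for Actn3, which passed 1.5-fold at 1.95 FPKM in WT against 4.19 FPKM in KD. Endocardial and endothelial markers ran from -0.25 for Nfatc1 to 0.40 for Emcn, and erythroid markers from -0.08 for Hbb-bh1 to 0.36 for Gata1. The 8 cardiomyocyte markers ran from -0.08 for Myl7 to 0.14 for Nkx2-5, with a median of -0.04. The part of these differences in the ratios of the heavy chain and thick filament genes was not tested.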

How the data were processed

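Per the labels and the study's methods, libraries of ventricle RNA from 3 WT and 3 KD embryos were made by Smart-Seq2 and read from a single end. The submitters' processing notes name TopHat, Bowtie2, Cuffdiff and mm10, without roles; versions are not given in the sources used here. The authors deposited 1 Cuffdiff table with an FPKM value per group, KD standing there as KO. Cuffdiff's own fold changes, test scores, p-values and q-values are also in it; they hold the authors' comparison and were not used. No column of single embryos was left unused (0 columns). Depth is unknown. Library amplification by PCR and the division of reads between similar genes could change the values.

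From the FPKM values, log2 ratios of KD over WT were computed with a pseudocount of 1, over genes whose FPKM reached 1 in WT or KD; 2 genes listed as having too many reads were left out. Genes past 1.5-fold were counted, and no test was made. Starts in the table were raised by 1. Gene positions are those of the table, apart from Myh7 and Myh7b, whose table positions are merged with those of other genes and which are also given from GENCODE M21. The summary values were the count of members past 1.5-fold, the median ratio, and the Myh7 share. Named genes were all members and, of each list, the highest and lowest ratio, the most abundant, and any gene past 1.5-fold. A gene that this rule names is not reported here. Every other gene named, such as Unc45b, Smyd1, Rbm20, Smarca4, Thra, Trpc4ap, Mybphl, Mhrt, Myl3, Myl4, Myod1 and the other heavy chains, was picked with its values in view. The members and lists were chosen with earlier results of these data known. Alternatives were other pseudocounts, filters, folds, centring, scaling and gene sets. Transcripts were taken from GENCODE M21, aligned with Biopython 1.88, and microRNAs from RefSeq; all 3 microRNAs looked for were matched. The counting of genes past a fold was tested on simulated data. Python 3.11.15, NumPy 2.4.6, pandas 2.3.3 and Matplotlib 3.10.9 were used.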

Additional observations from a re-analysis of the deposited data

How the results depend on the processing

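No paired analysis was possible because the values used here are pooled, 1 per group, and for the same reason no embryo could be left out. The count of members past 1.5-fold was 0 under each pseudocount, filter, centring and scaling tried. The count was also 0 at the smaller and the larger fold tried. Of the 11606 genes only 3.66% passed 1.5-fold, and the shares past the other folds are not given. A count of 0 among so few members therefore does not set them apart from other genes. The median log2 ratio of -0.14 was -0.13 when 5 FPKM was required in WT or KD (7 genes) and with no filter (9 genes), -0.17 with each group rescaled to the same total, and -0.16 without Myh9 and Myh10, each because other genes or totals enter. The Myh7 difference of 5.29 percentage points was 5.15 as a share of all heavy chain genes. Of 55 recomputed ratios of single genes 18 moved at 2 decimals, 0 changed sign, and the largest move was 0.0582, for Myh7b with no pseudocount. The depth is unknown, so the counting error of Myh7b, Myh9 and Myom2, the members with the lowest FPKM, could not be given.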

Other observations

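Light chain transcripts far exceeded those of the heavy chains in FPKM. The muscle light chains Myl2, Myl3, Myl4 and Myl7 summed to 45.9 times the FPKM of Myh6 and Myh7 in WT. In KD they summed to 48.6 times. In the assembled protein each heavy chain carries an essential and a regulatory light chain, but RNA levels need not follow this. The Myh6 transcript has 6113 bases, and how coverage depends on transcript length in these libraries was not tested. Mybphl, a relative of myosin binding protein H that is known from atrial muscle, had 59.4 FPKM in WT against 60.05 FPKM in KD, above Myom1, while Mybpc1 and Mybpc2, the skeletal forms of myosin binding protein C, reached at most 0.158 FPKM, for Mybpc2 in KD.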
